A study of Sus scrofa with 2 samples.

Results

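Macrophage nuclei of the pig pancreas were chosen by their own transcripts, and 69 of 28097 retained barcodes passed. A barcode was retained with 270 to 3700 genes and fewer than 13000 UMIs, a UMI being 1 counted RNA molecule. A retained barcode was called a macrophage nucleus when CD163, MRC1, CSF1R, F13A1 and MSR1 together held at least 2 UMIs and at least 0.15% of its UMIs, and when the endothelial genes FLT1, PTPRB, FGD5 and EGFL7 held fewer UMIs than these 5 genes. The nuclei came from single-nucleus RNA sequencing of 1 pancreas piece of a wild-type (WT) Bama pig and 1 of a PIGinH11 Bama pig, taken from the body of the gland. The PIGinH11 pig carried the transgenes GIPRdn, hIAPP and PNPLA3 I148M at the H11 locus, under promoters active in beta cells or in liver, so that none of them was designed for macrophages. Both pigs ate a control diet until 6 months of age and a high-fat and high-sucrose diet for the next 12 months, and both were sampled at 18 months. Each group was therefore 1 animal and 1 library, and genotype, animal and library cannot be told apart. No test was run between the groups, and the 95% intervals are exact ones that cover counting error only.

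Macrophages are phagocytes that live in every organ, where they clear dead cells, take up lipoproteins and iron-laden haemoglobin, and present antigens to T cells. In the pancreas they sit among the acini and within the islets, and they depend on signals through the receptor CSF1R. CD163 takes up haemoglobin complexes, MRC1 is the mannose receptor, MSR1 is a class A scavenger receptor, and F13A1 encodes the A chain of coagulation factor XIII, which resident macrophages hold in abundance.

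The WT library held 55784067 UMIs over 13619 barcodes and the PIGinH11 library 26228811 UMIs over 14964 barcodes. The rule found 26 macrophage nuclei among 13189 retained WT barcodes, and 43 among 14908 retained PIGinH11 barcodes. WT macrophage nuclei had a median of 2341 UMIs (range 522 to 6151) and 1383 genes, and PIGinH11 macrophage nuclei a median of 939 UMIs (range 507 to 7491) and 734 genes. The WT median depth was thus 2.49 times that of PIGinH11, and the other retained barcodes differed likewise, with medians of 3104 and 1179 UMIs. Summed over nuclei, the gene levels below rest on 66800 WT and 88506 PIGinH11 UMIs. The libraries shared 60 barcode sequences, of which 0 belonged to a macrophage nucleus in both. Doublets were scored but not removed. By the score 0 WT and 2 PIGinH11 macrophage nuclei were among the 1484 and 1791 marked barcodes.

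The label held for most of the nuclei when it was set against 28 further macrophage markers that the rule did not use, the most abundant of which was MERTK. All 28 were found in the macrophage nuclei of both libraries, at a summed level of 8832 counts per 1000000 UMIs (CPM) in WT and 7073 CPM in PIGinH11, against 691 and 811 CPM in the other retained barcodes. At least 3 of the 28 were present in 21 of 26 WT nuclei (80.8%) and in 26 of 43 PIGinH11 nuclei (60.5%). In acinar-marker nuclei that share was 17.0% in WT and 6.27% in PIGinH11, at median depths of 3105 and 1271 UMIs. Some of the 28 were common there too, since MERTK was present in 52.4% and 31.4% of acinar-marker nuclei and CD74 in 35.1% and 15.1%. At the other end, 1 WT and 10 PIGinH11 nuclei had none of the 28 markers, and for these 11 nuclei the name rests on the rule alone.

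The nuclei without further markers lay at the lower limit of the rule. Only 2 WT nuclei had exactly 2 UMIs of the 5 genes, whereas 14 PIGinH11 nuclei did, and 9 of those 14 held none of the 28 other markers. A further 4 WT and 7 PIGinH11 nuclei had 3 UMIs. With 4 or more UMIs there were 20 WT and 22 PIGinH11 nuclei, of which 19 and 20 held at least 3 other markers. Their median depths lay closer together, at 2802.5 UMIs in WT and 3284.5 in PIGinH11. By share of UMIs, 2 WT and 5 PIGinH11 nuclei lay just inside the limit, between 0.15% and 0.2%. Just outside it, between 0.1% and 0.15%, were 7 WT and 9 PIGinH11 barcodes with at least 2 UMIs, and 6 in each library carried at least 3 of the other markers. The endothelial limit removed 0 barcodes in either library.

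**Figure D1:**
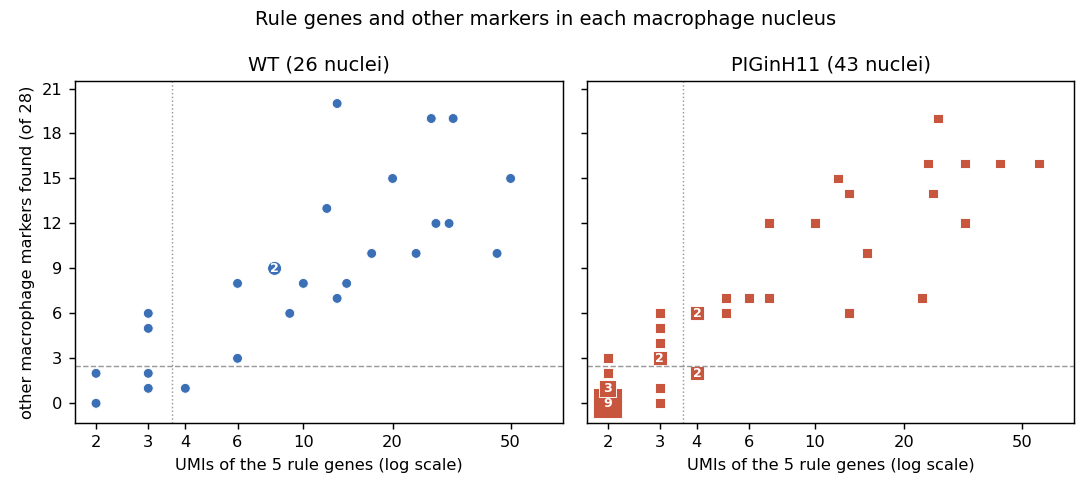
Each macrophage nucleus by its UMIs of the 5 rule genes (x axis, log scale) and by how many of 28 other macrophage markers it held (y axis), WT on the left and PIGinH11 on the right. Larger symbols with a number stand for that many nuclei, the dotted line separates 2 or 3 UMIs from 4 or more, and the dashed line separates fewer than 3 other markers from 3 or more. The 9 PIGinH11 nuclei at 2 UMIs and 0 other markers have 1 counterpart in WT.

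Macrophage nuclei made up 0.197% of retained WT barcodes (95% Clopper-Pearson interval 0.129 to 0.289) and 0.288% of retained PIGinH11 barcodes (0.209 to 0.388). The PIGinH11 share was 1.46 times the WT share, with an interval of 0.879 to 2.48 that covers counting error only and includes 1. With 1 library a group, this interval compares libraries and does not test the genotypes. Raising the minimum moved the shares together. With at least 3 UMIs of the 5 genes they were 0.182% and 0.195%, and with at least 4 UMIs they were 0.152% (0.0927 to 0.234) and 0.148% (0.0925 to 0.223). Applying the rule without MRC1 left 24 and 28 nuclei, and applying it without CSF1R left 22 and 38. When every barcode was thinned to 1000 UMIs and 1155 WT and 6093 PIGinH11 shallower barcodes were left out, the shares were 0.233% and 0.238%. At 500 UMIs per barcode they were 0.152% and 0.215%. Nuclei whose acinar marker UMIs equalled or outnumbered those of the 5 rule genes numbered 5 in WT and 16 in PIGinH11, and without them the shares were 0.159% and 0.181%. The part of depth and acinar RNA in the shares was not tested beyond these values.

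**Figure D2:**
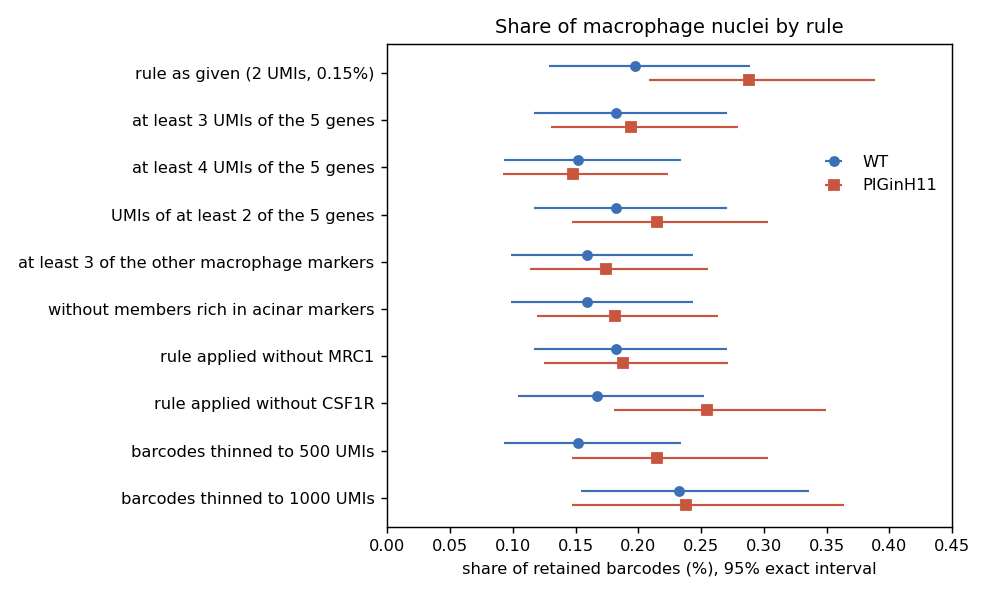
Share of retained barcodes called macrophage nuclei (x axis, percent) in WT (circles) and PIGinH11 (squares) under the rule as given and under other settings (y axis), with exact 95% intervals. The intervals of the libraries overlap in every row, and with at least 4 UMIs the shares are 0.152% and 0.148%.

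The 5 rule genes were spread unevenly over the nuclei, and their values are a description, since they chose the members. CD163 had 139 UMIs in 17 WT nuclei and 100 UMIs in 21 PIGinH11 nuclei. MRC1 had 113 UMIs in 21 WT nuclei and 154 UMIs in 35 PIGinH11 nuclei. CSF1R had 75 UMIs in 22 WT and 72 UMIs in 23 PIGinH11 nuclei. CSF1R was thus the rule gene found in most WT nuclei, and MRC1 the one found in most PIGinH11 nuclei. F13A1 had 30 UMIs in 18 WT and 59 UMIs in 24 PIGinH11 nuclei, and MSR1 had 36 UMIs in 14 WT and 34 UMIs in 12 PIGinH11 nuclei. All 5 genes occurred together in 7 WT and 6 PIGinH11 nuclei, and a single one in 2 WT and 11 PIGinH11 nuclei. CD163 and MRC1 shared 13 of 26 WT and 18 of 43 PIGinH11 nuclei.

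Outside the rule, several of the genes that stood highest over the rest of the pancreas in both libraries are known from macrophages. No gene group was tested for enrichment among them. The 15 leading genes, ranked by the lower of their folds over the other barcodes in the libraries, ran from 88.6-fold for COLEC12 to 459-fold for VSIG4. They included the chains of complement C1q, which macrophages make locally, with lower folds of 397 for C1QC, 319 for C1QA and 313 for C1QB. Of the C1q chains, C1QA had 23 UMIs in 11 WT nuclei and 20 UMIs in 10 PIGinH11 nuclei. VSIG4, a complement receptor of resident macrophages, had 14 UMIs in 9 WT nuclei and 16 UMIs in 10 PIGinH11 nuclei. STAB1, a scavenger receptor, had 58 UMIs in 17 WT nuclei and 54 UMIs in 15 PIGinH11 nuclei. As levels, C1QA stood at 344 and 226 CPM and STAB1 at 868 and 610 CPM. P2RY12, an ADP receptor best known in microglia, had 80 UMIs in 15 WT and 71 UMIs in 14 PIGinH11 nuclei. COLEC12, a scavenger receptor of the collectin family, had 157 UMIs in 17 WT nuclei and 184 in 21 PIGinH11 nuclei. The choice by the lower fold, with 10 UMIs required in each library, favoured genes at like levels in both, and the log2 ratios of the 15 genes, PIGinH11 over WT, ran from -0.89 for BANK1 to 0.56 for CD200R1, which encodes an inhibitory receptor. The complement receptor C5AR1, the tetraspanning protein MS4A7, the chemokine CCL14, the transcription factor TFEC, FGD2 and C4BPA completed the list.

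**Figure D3:**
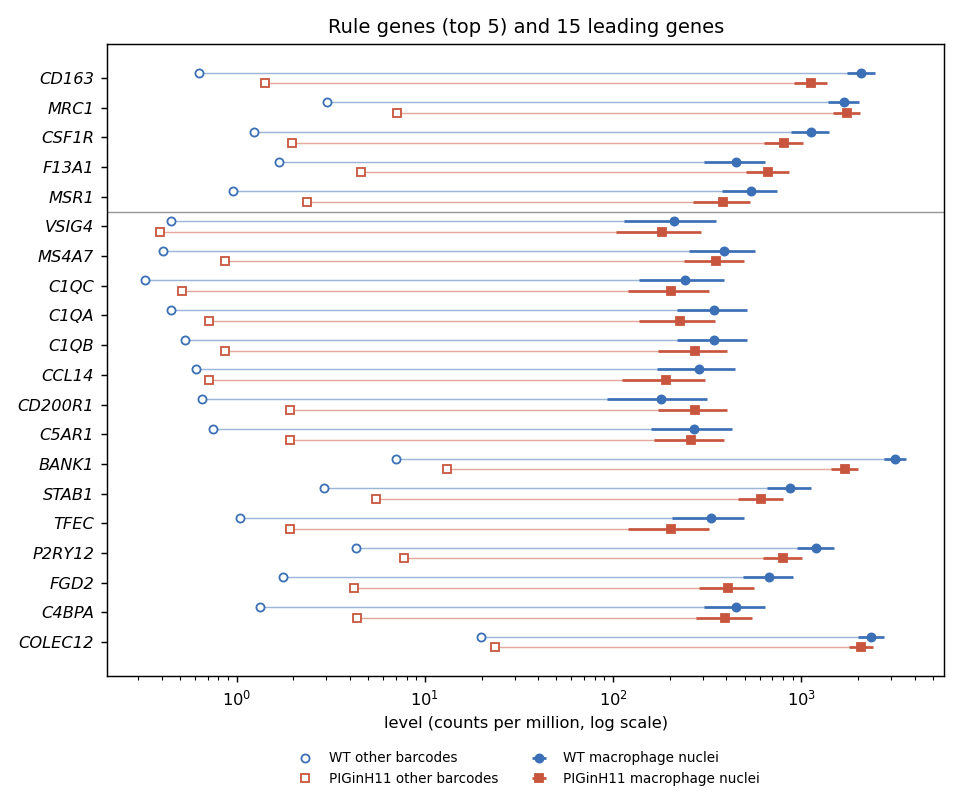
Levels in CPM (x axis, log scale) of the 5 rule genes and the 15 leading genes (y axis) in macrophage nuclei (filled symbols, with exact Poisson 95% intervals) and in the other retained barcodes (open symbols) of WT (circles) and PIGinH11 (squares). Every leading gene stands at least 88.6-fold above the other barcodes in both libraries.

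BANK1, an adaptor best known from B cells, was among the most abundant of these genes. It had 211 UMIs in 19 WT nuclei and 151 UMIs in 26 PIGinH11 nuclei, at 3159 and 1706 CPM, against 7.04 and 13.1 CPM in the other barcodes. It was found together with CD163 in 15 WT and 20 PIGinH11 nuclei. Defining lymphocyte genes stood at 0 in the macrophage nuclei of both libraries (CD3E, BCL11B, CD2, IKZF3, LCK, MS4A1 and KLRK1), and the lymphocyte list without BANK1 summed to 44.9 and 124 CPM, below the 703 and 530 CPM of the other barcodes. BANK1 itself had 0 CPM in 29 WT and 10.5 CPM in 74 PIGinH11 nuclei selected by T-cell markers. SKAP1, the most abundant other gene of the lymphocyte list, was found in 1 WT and 6 PIGinH11 macrophage nuclei. It stood at 15.0 and 79.1 CPM, against 671 and 456 CPM in the other barcodes. CD163 belongs to the rule, so its sharing of nuclei with BANK1 follows in part from how the nuclei were chosen. T-cell markers do not select B cells, and BANK1 was not set against lymphocyte genes nucleus by nucleus.

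Most marker lists of other cell types lay below or near their level in the other barcodes. The lymphocyte, dendritic, mast cell, stellate and longer endothelial lists were above it in 1 or both libraries. With BANK1, its most abundant gene, the lymphocyte list summed to 3204 and 1830 CPM, against 710 and 543 CPM elsewhere. Of the monocyte and neutrophil list, 2 of 7 genes were found in each library, summing to 225 and 237 CPM, almost all of it VCAN, against 430 and 313 CPM elsewhere, while S100A8, S100A12 and LYZ were at 0. The dendritic list summed to 1287 and 1130 CPM, mostly CADM1, above the 460 and 610 CPM of the other barcodes, with XCR1 and CCR7 at 0. The mast cell list summed to 105 and 158 CPM, against 107 and 64.4 CPM elsewhere. Its most abundant gene, MS4A2, had 4 UMIs in 4 WT and 10 UMIs in 4 PIGinH11 nuclei, 294 and 191 times its level in the other barcodes, and HDC and GATA2 were at 0. Stellate genes summed to 135 and 33.9 CPM (84.7 and 87.2 elsewhere), mural genes to 0 and 22.6 CPM (25.2 and 47.8), Schwann genes to 150 and 33.9 CPM (161 and 110) and endocrine genes to 240 and 79.1 CPM (508 and 485). The 4 endothelial genes of the rule summed to 59.9 and 102 CPM, against 105 and 218 CPM in the other barcodes. Endothelial RNA was uneven within the longer list. KDR, EMCN and SLCO2A1 were at 0 in both libraries, as was FLT1, which belongs to the rule and not to this list. VWF, the von Willebrand factor, had 21 UMIs in 11 WT nuclei and 47 UMIs in 15 PIGinH11 nuclei. It made up most of the 479 and 859 CPM of the endothelial list outside the rule, against 330 and 643 CPM elsewhere. VWF and CD36 shared 6 WT and 12 PIGinH11 nuclei.

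Acinar and ductal transcripts were present in the macrophage nuclei below their level elsewhere. The 9 acinar enzyme genes took 4.53% of UMIs in WT and 1.00% in PIGinH11 macrophage nuclei, against 7.75% and 3.00% in the other barcodes. PRSS2, which encodes trypsinogen, had 1716 UMIs in 26 of 26 WT nuclei and 154 UMIs in 40 of 43 PIGinH11 nuclei. Its log2 ratio was -3.88 in macrophage nuclei and -2.90 in the other barcodes, so the gene was lower in PIGinH11 in both. The non-enzyme acinar markers summed to 1961 and 2734 CPM, against 11871 and 10835 CPM elsewhere, and the ductal list to 3967 and 1186 CPM, against 8710 and 5667 CPM. In WT, 89 of the 176 UMIs of the ductal gene SLC4A4 lay in 1 nucleus. PIGinH11 nuclei with 4 or more UMIs of the 5 rule genes held 20 of its 54 UMIs. For EFEMP1, the most abundant non-enzyme acinar marker, such nuclei held 7 of 40 WT and 38 of 82 PIGinH11 UMIs. The rest lay in the 6 WT and 21 PIGinH11 nuclei with 2 or 3 UMIs of the rule genes. How far such RNA contributes to other genes of these nuclei was not tested beyond the values given beside them.

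To compare the libraries gene by gene, UMIs were summed over the macrophage nuclei of each library and scaled to CPM. Among 1251 genes with at least 30 UMIs over both libraries, 114 (9.11%) were at least 2-fold higher in PIGinH11 and 97 (7.75%) at least 2-fold lower, with a median log2 ratio of -0.00067. Median-of-ratios scaling in place of total UMIs removed a median log2 ratio of -0.12 over 621 genes, which raised every ratio by that size, and 151 genes were then higher and 76 lower. The shares of 9.11% and 7.75% are the background against which the lists below are read, and with 1 library a group they count folds, not tested differences. For the genes described next, the level had to be at least 2 times that of the other barcodes in the library where the gene was higher, which 528 genes met, so the set was chosen in part by the difference itself. The 10 highest log2 ratios among the named genes of that set ran from 1.84 to 3.93, and the 10 lowest from -2.67 to -1.54. Of these 20 genes, 6 were at 2 or more times the other barcodes in both libraries (CD36, PDGFC, LIPA, RASSF4, PLXDC2 and HLA-DRA), and the other 14 met this in 1 library only.

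Among the higher genes, CD36 and LIPA act on lipids taken up from outside the cell. CD36 (chromosome 9, 99685748 to 99782296, Sscrofa11.1), a scavenger receptor that takes up oxidised lipoproteins and fatty acids, had 19 UMIs in 11 WT nuclei and 117 UMIs in 20 PIGinH11 nuclei. Its level was 284 CPM in WT (Poisson interval 171 to 444) and 1322 CPM in PIGinH11 (1093 to 1584), a log2 ratio of 2.19 (1.51 to 3.00). No WT nucleus held more than 4 UMIs, while single PIGinH11 nuclei held up to 30. CD36 also stood at 30.8 and 81.5 CPM in the other barcodes, and at 544 and 658 CPM in endothelial-marker nuclei, a cell type that uses it too. A CD36 UMI was present in 5.52% of acinar-marker nuclei in WT and 6.54% in PIGinH11. In macrophage nuclei thinned to 500 UMIs it was found in 1 of 26 WT and 9 of 43 PIGinH11 nuclei, against 1.07% and 2.66% of acinar-marker nuclei thinned alike.

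LIPA (chromosome 14, 101131372 to 101254739), the lysosomal acid lipase that frees cholesterol from engulfed esters, had 8 UMIs in 8 WT nuclei and 49 UMIs in 15 PIGinH11 nuclei. The levels were 120 CPM (51.7 to 236) and 554 CPM (410 to 732), a log2 ratio of 2.14 (1.12 to 3.50). Every WT nucleus with LIPA held 1 UMI, and PIGinH11 nuclei held up to 10, whereas LIPA in the other barcodes stood at 31.6 and 35.2 CPM. Thinned to 500 UMIs, LIPA was present in 2 WT and 10 PIGinH11 nuclei. NCEH1, which hydrolyses cholesterol esters in macrophages and was named after its value was seen, had 10 UMIs in 7 WT and 44 UMIs in 10 PIGinH11 nuclei, a log2 ratio of 1.68 (0.72 to 2.89), but thinned to 500 UMIs it was found in 3 of 26 WT and 4 of 43 PIGinH11 nuclei. SLC11A1, a metal transporter of the phagosome, had 3 UMIs in 2 WT and 24 UMIs in 7 PIGinH11 nuclei, a log2 ratio of 2.40 (0.87 to 4.97), and stood at 0.509 and 2.28 CPM in the other barcodes. CD36 and LIPA occurred in the same nucleus in 6 WT and 13 PIGinH11 nuclei. LIPA belongs to a list of lysosome and lipid genes, whose other members with 30 UMIs lay within 2-fold. ABCA1, the cholesterol exporter, had 36 and 45 UMIs (log2 ratio -0.09), the protease CTSB 40 and 54 (0.02), PSAP, a lysosomal activator protein, 22 and 28 (-0.06), and the protease CTSC 33 and 24 (-0.86). In this list of lysosome and lipid genes, 5 genes had 30 UMIs, and 1 was at least 2-fold higher (LIPA) and 0 lower, with a median log2 ratio of -0.06.

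PDGFC (chromosome 8, 45579065 to 45808789), a growth factor for mesenchymal cells, had 17 UMIs in 8 WT nuclei and 114 UMIs in 14 PIGinH11 nuclei. The levels were 254 and 1288 CPM, a log2 ratio of 2.30 (1.60 to 3.17), which was 0.99 in nuclei thinned to 500 UMIs. The other barcodes stood at 80.5 and 76.1 CPM. The highest count, 29 UMIs, occurred in each of 2 PIGinH11 nuclei, and the highest WT nucleus held 4. PDGFC and CD36 occurred together in 5 WT and 11 PIGinH11 nuclei, and PDGFC and CD163 in 8 and 10. Other members of the trophic and matrix list had smaller ratios. The growth factor IGF1 had 32 UMIs in 9 WT and 26 UMIs in 13 PIGinH11 nuclei, at a log2 ratio of -0.70. PDGFB, the B chain of the same family, had 14 UMIs in 8 WT nuclei and 6 UMIs in 5 PIGinH11 nuclei, a log2 ratio of -1.56 (-3.30 to -0.16), which turned to 0.86 in thinned nuclei. Outside the rule that list had 2 genes with 30 UMIs, of which 1 was at least 2-fold higher (PDGFC) and 0 lower.

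MITF (chromosome 13, 51177356 to 51422096), a transcription factor of lysosomal genes, had 31 UMIs in 14 WT nuclei and 126 UMIs in 28 PIGinH11 nuclei, a log2 ratio of 1.60 (1.04 to 2.23). This gene is also abundant in the acinar-marker nuclei, at 829 and 899 CPM, so the WT macrophage level of 464 CPM lay below theirs and the PIGinH11 level of 1424 CPM above. Thinned to 500 UMIs, MITF was found in 4 of 26 WT nuclei (15.4%) and 16 of 43 PIGinH11 nuclei (37.2%), against 31.2% of acinar-marker nuclei in each library. MITF and CD36 shared 5 WT and 18 PIGinH11 nuclei. MERTK, the receptor for the uptake of apoptotic cells, had 46 UMIs in 15 WT and 105 UMIs in 19 PIGinH11 nuclei, a log2 ratio of 0.78 (0.27 to 1.32), which is under 2-fold. Its level in the other barcodes was 213 and 221 CPM. Of 10 scavenger and uptake receptors with 30 UMIs, 3 were genes of the rule. Of the other 7, 1 was at least 2-fold higher (CD36) and 0 were lower, with a median log2 ratio of 0.12.

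Among the genes selected in this way the highest ratio belonged to LIMS1, an adaptor of integrin adhesions, with 2 UMIs in 2 WT nuclei and 50 UMIs in 16 PIGinH11 nuclei. Its log2 ratio was 3.93 (2.31 to 7.32), while the other barcodes stood at 107 and 126 CPM, so that the WT level of 29.9 CPM lay below them. RYBP, a subunit of Polycomb complexes, had 4 UMIs in 4 WT and 27 UMIs in 17 PIGinH11 nuclei, a log2 ratio of 2.21 (0.83 to 4.32), but -0.074 in nuclei thinned to 500 UMIs. VRK3, a kinase-like protein, and MCPH1, a protein of chromosome condensation, each had 4 UMIs in 4 WT and 26 UMIs in 12 PIGinH11 nuclei, a log2 ratio of 2.15 (0.77 to 4.27). Thinned, VRK3 stood at 0.41 and was no longer past 2-fold. These 4 genes are widely used, and their WT macrophage levels rested on 2 to 4 UMIs. ARHGEF11, a guanine nucleotide exchange factor, had 6 UMIs in 5 WT and 32 UMIs in 20 PIGinH11 nuclei (1.92, interval 0.73 to 3.56), and stood at 0.65 when thinned. RYBP, VRK3, MCPH1 and ARHGEF11, like LIMS1, lay below the other barcodes in WT, at 0.228, 0.731, 0.465 and 0.856 times their level.

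A single PIGinH11 nucleus carried much of the UMIs of several higher genes. It held 5655 UMIs, 15 of them of the rule genes, and contained 36 of the 41 PIGinH11 UMIs of ENPP1, an ectoenzyme that splits nucleotides, and 18 of the 35 of RASSF4, a Ras-association protein. It also held 40 of 126 MITF, 30 of 117 CD36, 11 of 50 LIMS1, 10 of 24 SLC11A1, 14 of 20 FABP4 and 12 of 14 LPL UMIs. FABP4, a fatty acid carrier, and LPL, the lipoprotein lipase, were chosen for mention after this was seen. Without that nucleus the log2 ratio was -0.94 for ENPP1 and 0.91 for RASSF4, and neither was then at least 2-fold higher. It was 1.86 for CD36, 2.14 for LIPA, 2.37 for PDGFC, 1.15 for MITF, 3.67 for LIMS1 and 1.74 for SLC11A1 without it. The values of CD36, MITF, LIMS1 and SLC11A1 thus stayed past 2-fold without it, whereas ENPP1 turned. The nucleus held only 3 of 49 LIPA and 2 of 114 PDGFC UMIs, so leaving it out could hardly move these ratios. The 2 PIGinH11 nuclei with 29 PDGFC UMIs each were not left out together.

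**Figure D4:**
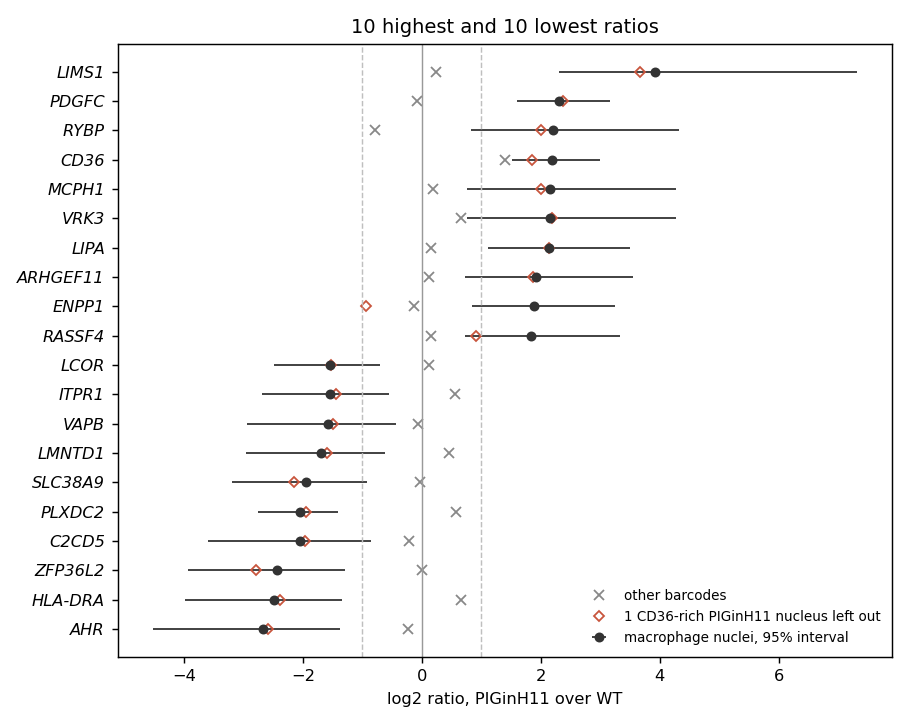
Log2 ratio of PIGinH11 over WT (x axis) of the 10 highest and 10 lowest genes (y axis) in macrophage nuclei with exact conditional 95% intervals (filled circles), in the other barcodes (crosses), and in macrophage nuclei without the PIGinH11 nucleus richest in CD36 (open diamonds). Dashed lines mark 2-fold. ENPP1 moves from 1.88 to -0.94 when that nucleus is left out.

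In the list of antigen presentation genes, 1 of 5 genes with 30 UMIs was at least 2-fold lower in PIGinH11 macrophage nuclei (CIITA) and 0 were higher, with a median log2 ratio of -0.70. HLA-DRA was not in that list, which names the chain by another symbol, and was described for its low ratio. HLA-DRA, the alpha chain of an MHC class II molecule under the symbol used in the matrix, had 31 UMIs in 13 WT nuclei and 7 UMIs in 7 PIGinH11 nuclei. The levels were 464 CPM (315 to 659) in WT and 79.1 CPM (31.8 to 163), a log2 ratio of -2.48 (-3.98 to -1.34). Each PIGinH11 nucleus with HLA-DRA held 1 UMI, and single WT nuclei held up to 8. The other barcodes stood at 7.21 and 11.4 CPM. HLA-DRA was found in 0.944% of WT and 0.619% of PIGinH11 acinar-marker nuclei. Thinned to 500 UMIs, 2 WT and 3 PIGinH11 macrophage nuclei held it, and the log2 ratio was then -0.24, no longer past 2-fold.

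CIITA (chromosome 3, 32171706 to 32230775), the transactivator that switches on MHC class II genes, had 39 UMIs in 12 WT and 19 UMIs in 11 PIGinH11 nuclei, a log2 ratio of -1.42 (-2.32 to -0.62). In endothelial-marker nuclei CIITA stood at 218 and 224 CPM. Thinned to 500 UMIs, it was present in 2 WT and 7 PIGinH11 nuclei, an order that goes against its CPM, and its log2 ratio was then -0.28, no longer past 2-fold. CD86 (chromosome 13, 138427573 to 138504307), a costimulatory ligand for T cells that was named after its values were seen, had 23 UMIs in 8 WT nuclei and 6 UMIs in 4 PIGinH11 nuclei, a log2 ratio of -2.26 (-3.93 to -1.01). In thinned nuclei CD86 was found in 1 WT and 1 PIGinH11 nucleus. CD80, its relative, had 16 UMIs in 7 WT and 9 UMIs in 5 PIGinH11 nuclei, a log2 ratio of -1.20 (-2.60 to 0.03). The invariant chain CD74 had 59 and 48 UMIs, a log2 ratio of -0.70 (-1.28 to -0.13), and SLA-DQB1, a class II beta chain, had 35 and 26 UMIs (-0.83, interval -1.63 to -0.06). B2M, the light chain of class I, had 30 and 35 UMIs (-0.19), and the protease CTSS 24 and 28 (-0.19). The list summed to 3698 CPM in WT and 2056 CPM in PIGinH11.

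Among transcription factors, MEF2C (chromosome 2, 96122407 to 96296927) had 135 UMIs in 20 WT nuclei and 70 UMIs in 17 PIGinH11 nuclei, a log2 ratio of -1.35 (-1.79 to -0.93). It is a factor of myeloid and muscle genes, and in endothelial-marker nuclei it stood at 1124 and 794 CPM. Thinned to 500 UMIs, 14 WT and 8 PIGinH11 nuclei held it, and with no minimum share of UMIs in the rule its log2 ratio was -0.61. AHR, the receptor for aryl hydrocarbons, had 26 UMIs in 10 WT nuclei and 5 UMIs in 5 PIGinH11 nuclei, a log2 ratio of -2.67 (-4.52 to -1.38), the lowest among the genes selected for their level, which AHR met in WT (7.06 times the other barcodes) and not in PIGinH11. ZEB2, one of the most abundant factors of these nuclei, had 191 UMIs in 19 WT nuclei and 283 UMIs in 24 PIGinH11 nuclei, a log2 ratio of 0.16 (-0.11 to 0.43). RUNX1 had 90 and 94 UMIs (-0.34) and MEF2A 112 and 128 (-0.21). For ZEB2, RUNX1 and MEF2A the ratio between the libraries was thus within 2-fold. Of 10 myeloid factors with 30 UMIs, 2 were at least 2-fold higher (MITF and BACH1, a repressor of haem-response genes with 7 and 23 UMIs) and 1 lower (MEF2C), with a median log2 ratio of -0.03.

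Of the inflammatory genes, NFKB1 and NLRP3 had enough UMIs to compare. NFKB1, a subunit of NF-kappaB, had 28 UMIs in 10 WT and 14 UMIs in 10 PIGinH11 nuclei, a log2 ratio of -1.38 (-2.45 to -0.43). NLRP3, the inflammasome sensor, had 27 UMIs in 11 WT and 14 UMIs in 10 PIGinH11 nuclei, a log2 ratio of -1.33 (-2.40 to -0.37). Both genes with 30 UMIs in the cytokine, chemokine and inflammasome list were thus at least 2-fold lower, and 0 were higher. Neither was past 2-fold in nuclei thinned to 500 UMIs, where both stood at -0.36, or with no minimum share of UMIs in the rule, and as a mean over nuclei NFKB1 stood at -0.72. TNF and IL1A had 1 UMI each in WT and 0 in PIGinH11, CCL2 had 3 and 3, and IL6, IL10 and CXCL8 had 0 in both, where a count of 0 allows up to 44.9 CPM in WT and 33.9 CPM in PIGinH11 (3 counts per library). ZFP36L2, a protein that promotes the decay of AU-rich transcripts, had 30 UMIs in 14 WT nuclei and 7 UMIs in 5 PIGinH11 nuclei, a log2 ratio of -2.43 (-3.94 to -1.29). FKBP5, a glucocorticoid target, had 77 UMIs in 17 WT and 44 UMIs in 14 PIGinH11 nuclei, a log2 ratio of -1.21 (-1.78 to -0.66), and in the other barcodes it stood at 240 and 144 CPM, a log2 ratio of -0.74. FKBP5 was within 2-fold with a minimum of 0.3% of UMIs (-0.94) and with the rule without MRC1 (-0.95) or F13A1 (-0.93).

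In the list of CSF1R signalling and its partners, 10 genes outside the rule had 30 UMIs. Of these, 0 were at least 2-fold higher and 2 lower, with a median log2 ratio of -0.56, and over all 1251 genes compared 16.9% were past 2-fold in either direction. The 2 were FYB1, an adaptor of haematopoietic cells, with 34 UMIs in 15 WT and 16 UMIs in 8 PIGinH11 nuclei (-1.47, interval -2.45 to -0.60), and PIK3CG, a PI3-kinase of leukocytes, with 21 UMIs in 14 WT and 10 UMIs in 6 PIGinH11 nuclei (-1.44, interval -2.73 to -0.33). The leukocyte phosphatase PTPRC had 55 and 48 UMIs (-0.60, interval -1.19 to -0.02), and DOCK2, a motility factor, 31 and 55 (0.41). In the complement list 0 of 5 genes differed by 2-fold, and the median log2 ratio was -0.35. This did not hold in nuclei thinned to 500 UMIs. There C1QA stood at -2.31, ITGAM at -1.35 and C1QC at 2.44, while C1QB stood at 0.17 and C5AR1 at -0.97. The iron list had 1 gene with 30 UMIs outside the rule, the exporter SLC40A1 with 28 and 35 UMIs (-0.09). Thinned to 500 UMIs, SLC40A1 stood at -1.86.

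The other lowest ratios came from genes of varied function. SLC38A9, an amino acid sensor of the lysosome, had 30 UMIs in 15 WT nuclei and 10 UMIs in 8 PIGinH11 nuclei (-1.94). C2CD5, a regulator of glucose transporter traffic, had 23 UMIs in 14 WT and 7 UMIs in 6 PIGinH11 nuclei (-2.05). ITPR1, a calcium channel of the endoplasmic reticulum, had 27 UMIs in 10 WT and 12 UMIs in 5 PIGinH11 nuclei (-1.54). Those genes were spread over several nuclei of each library, whereas most WT UMIs of PLXDC2 and of LMNTD1 lay in 1 nucleus. PLXDC2, a membrane protein also abundant in endothelial-marker nuclei (1175 and 992 CPM), had 82 UMIs in 7 WT nuclei and 26 UMIs in 6 PIGinH11 nuclei (-2.04), but 60 of the 82 lay in 1 WT nucleus. Without the nucleus richest in PLXDC2 in each library its log2 ratio was -1.13. LMNTD1 had 25 UMIs in 3 WT and 10 in 8 PIGinH11 nuclei (-1.69), of which 16 lay in 1 WT nucleus, and its ratio was -0.62 by the same step. VAPB, a tether of the endoplasmic reticulum (-1.58), and LCOR, a nuclear receptor corepressor (-1.54), completed the 10. LCOR turned to 1.04 in nuclei thinned to 500 UMIs and stood at -0.27 as a mean over nuclei. With no minimum share of UMIs in the rule, VAPB stood at -0.76, C2CD5 at -0.87 and SLC38A9 at -0.44.

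The nuclei with 4 or more rule UMIs, whose depths lie closer together, held 60599 of the 66800 WT and 72796 of the 88506 PIGinH11 UMIs, so their values largely repeat those above and are given for the spread between nuclei. CD36 had 17 UMIs in 9 of 20 WT nuclei, with a median of 0 per nucleus and a maximum of 4, and 110 UMIs in 16 of 22 PIGinH11 nuclei, with a median of 3 and a maximum of 30. In that set 8 PIGinH11 nuclei held more CD36 than any WT nucleus. LIPA was found in 7 of 20 WT nuclei at no more than 1 UMI, and in 13 of 22 PIGinH11 nuclei, 11 of which held more than 1. The nuclei of both libraries overlapped for each of these genes, since both included nuclei at 0. PDGFC was found in 8 of 20 WT and 10 of 22 PIGinH11 nuclei, so that its difference lay in the UMIs per nucleus, with 7 PIGinH11 nuclei above the WT maximum of 4. HLA-DRA was found in 12 of 20 WT nuclei, 5 of which held more than the PIGinH11 maximum of 1, and in 7 of 22 PIGinH11 nuclei. MEF2C had a median of 5 per nucleus in WT and 3 in PIGinH11, and AHR was found in 10 and 5 nuclei. In this set the log2 ratios were 2.39 for CD36, 2.37 for LIPA, 2.39 for PDGFC, 1.75 for MITF, -2.29 for HLA-DRA, -1.32 for CIITA and -1.23 for MEF2C. Among nuclei with 6 or more rule UMIs, CD36 was present in 9 of 19 WT and 15 of 16 PIGinH11 nuclei, and LIPA in 7 and 10. The PIGinH11 nuclei of this set were the deeper ones, with a median of 3718 UMIs against 2834 in WT.

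**Figure D5:**
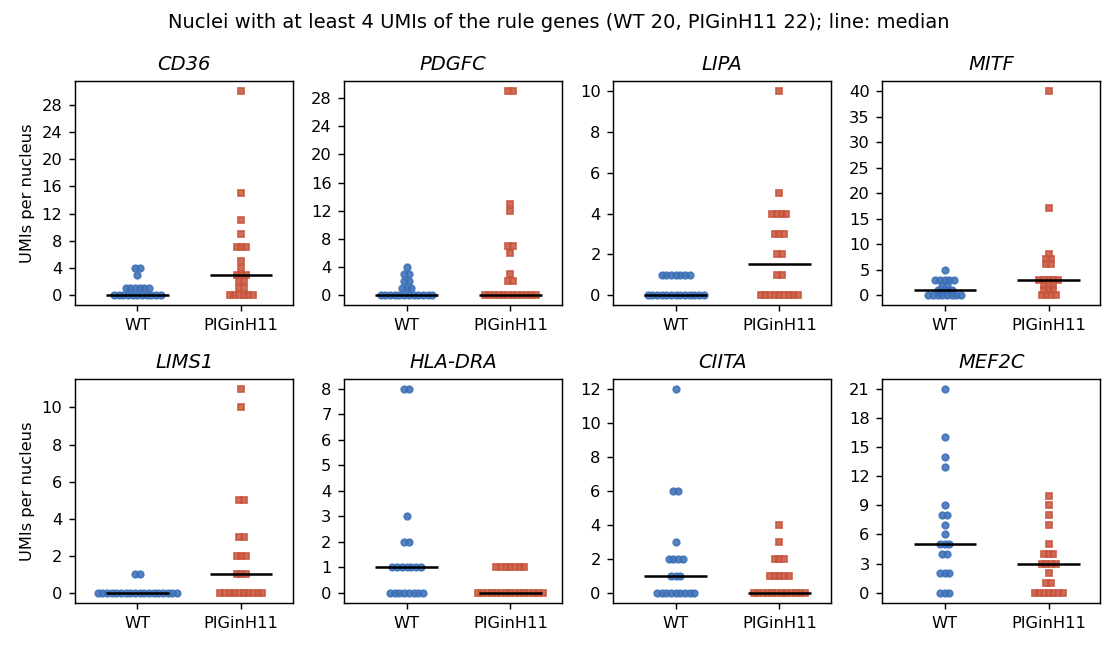
UMIs per nucleus (y axis, a separate linear scale in each panel) of 8 genes in nuclei with at least 4 UMIs of the rule genes, WT (20 nuclei, circles) and PIGinH11 (22 nuclei, squares), with the median as a line. CD36, PDGFC, LIPA, MITF and LIMS1 reach higher counts in PIGinH11, and HLA-DRA, CIITA and MEF2C in WT, while the nuclei of both libraries overlap in every panel. Nuclei of 1 library are not replicates of the animal.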

How the data were processed

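The authors sequenced nuclei with the 10x 3′ v3.1 chemistry and deposited raw UMI counts per gene and barcode, aligned to Sscrofa11.1, with barcodes called by EmptyDrops. The methods name Cell Ranger 3.1.0 and the file headers 5.0.0. The annotation version is not given in the sources used here. The methods print a lower UMI limit than the 13000 used here. The matrices list 31908 genes, and 841 of 15410 without a symbol were named from the reference table. Coordinates came from RefSeq (Sscrofa11.1), matched by symbol.

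From the deposited counts, UMIs were summed over member nuclei and scaled to CPM. Ratios had 0.5 UMI added to each sum and exact conditional binomial 95% intervals, and UMIs of 1 gene cluster in nuclei, so these are too narrow. Shares had Clopper-Pearson and sums Poisson intervals. Python 3.11.15, numpy 2.4.6, scipy 1.17.1, pandas 2.3.3 and scanpy 1.11.5 (Scrublet, marking the top 0.8% for each 1000 barcodes) were used. T-cell-, endothelial- and acinar-marker nuclei were selected by marker UMIs. The scripts were tested on simulated data.

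Named were the 5 rule genes, the 15 leading genes with 10 UMIs in each library, the 10 highest and 10 lowest ratios among genes with a symbol, 30 UMIs and at least 2 times the level of the other barcodes, and up to 5 genes with 20 UMIs from each of 14 lists. The members, lists and genes were chosen with earlier results of these data known. BACH1, FYB1, PIK3CG, CD86, CD80, NCEH1, TNF, IL1A, CCL2, IL6, IL10, CXCL8, VWF, PRSS2, FABP4, LPL, PLIN2, SPP1, TREM2, GPNMB, PPARG, APOE, FOS and GP91-PHOX were named outside this rule after their values were seen. So were COX1, COX3, ATP6, SKAP1, MS4A2 and EFEMP1. SLC4A4, VCAN and CADM1 were named as the most abundant genes of their cell type marker lists. Alternatives changed the rule, depth, scaling, minimum and doublets.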

Additional observations from a re-analysis of the deposited data

How the results depend on the processing

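The ratio of shares lay between 0.973 and 1.53 over 18 alternatives, each within the interval of the main value. The counts at least 2-fold higher and lower kept within 1.5 times of 114 and 97 except as follows. They were 74 and 63 of 814 genes with at least 0.3% of UMIs, 219 and 243 of 2624 with no minimum share, 194 and 171 of 1859 with at least 20 UMIs, 31 and 34 of 453 with at least 60 UMIs, and 221 and 236 with members thinned to 500 UMIs. With 5 UMIs added to each sum 65 genes were higher, and with the level of the other barcodes subtracted 536 were. Other numbers of genes compared came with the first 4 settings, and the cause of the remaining shifts was not tested. Median-of-ratios scaling, which removed a median log2 ratio of -0.12, gave 151 higher and 76 lower. Of 30 named genes past 2-fold, 10 stayed past it under all 25 settings (LIMS1, AHR, ZFP36L2, SLC11A1, CD36, MCPH1, LIPA, PLXDC2, MITF and ITPR1) and 23 kept their direction with UMIs left in every setting. CD86, CD80, BACH1, FYB1, PIK3CG, NCEH1 and PPARG, named after their values were seen, were not among the 30. Their log2 ratios were not computed under these settings. In nuclei thinned to 500 UMIs HLA-DRA, CIITA, NFKB1, NLRP3, PDGFC, VRK3, ARHGEF11, SLC38A9, PDK4 and HSP90AA1 were no longer past 2-fold in their direction, and with no minimum share C2CD5, VAPB, MEF2C, SLC38A9, PDGFB, NLRP3, LCOR, NFKB1, RYBP and HSP90AA1 were not. Other genes within 2-fold in the main values were past it in thinned nuclei, among them C1QA, C1QC, ITGAM, CD74, SLC40A1, CTSC, P2RY12 and MS4A7. FKBP5 and CIITA were not past 2-fold at 0.3% of UMIs or with the rule without MRC1, nor FKBP5 without F13A1. ENPP1 turned, with a log2 ratio of -1.39 at 0.3% of UMIs, -0.55 with the rule without CSF1R, -0.36 in thinned nuclei, -0.69 without the nuclei richest in it and -0.94 without the CD36-richest nucleus. In thinned nuclei RYBP turned to -0.074, RASSF4 to -1.09, LCOR to 1.04 and PDGFB to 0.86, and PDK4 turned to -0.27 with the other barcodes subtracted. Settings with at least 3 other macrophage markers, without the nuclei richest in a gene and without the CD36-richest nucleus were chosen after seeing the data. No paired analysis was possible because each group has 1 library. With 26 and 43 nuclei, genes below 30 UMIs have wide intervals, and no value separates genotype from animal or library.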

Other observations

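FABP4 and LPL, which handle fatty acids, PLIN2, a lipid droplet coat protein, and SPP1, TREM2 and GPNMB were chosen after their values were seen. The 6 genes together had 6 UMIs in 3 of 26 WT nuclei and 59 UMIs in 10 of 43 PIGinH11 nuclei. At least 3 of the 6 genes occurred in 0 WT and 3 PIGinH11 nuclei, and 1 PIGinH11 nucleus held 35 of the 59 UMIs. PPARG, the nuclear receptor of lipid uptake, had 2 UMIs in 2 WT nuclei and 16 UMIs in 8 PIGinH11 nuclei, a log2 ratio of 2.32 (0.51 to 5.76). In the other WT and PIGinH11 barcodes PPARG stood at 12.0 and 31.0 CPM, FABP4 at 6.80 and 21.0 CPM, LPL at 67.0 and 105 CPM, PLIN2 at 3.93 and 19.1 CPM, SPP1 at 14.9 and 5.91 CPM, TREM2 at 0.0611 and 0.473 CPM and GPNMB at 11.0 and 8.51 CPM. In endothelial-marker nuclei PPARG stood at 319 and 321 CPM and FABP4 at 166 and 212 CPM, and the part of such RNA in these values was not tested. APOE, a carrier of cholesterol, had 0 UMIs in both.

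Metabolic and stress genes did not follow one direction. PDK4, a brake on glucose oxidation, had 8 UMIs in 6 WT and 29 UMIs in 13 PIGinH11 nuclei, a log2 ratio of 1.39, and stood at 133 and 390 CPM in the other barcodes, a log2 ratio of 1.56. TXNIP, a thioredoxin inhibitor that responds to glucose, had 39 and 34 UMIs in macrophage nuclei, a log2 ratio of -0.60 (-1.31 to 0.10), while the other barcodes stood at 294 and 646 CPM, a log2 ratio of 1.14. In the glucose and glucocorticoid list 1 of 3 genes was at least 2-fold higher (PDK4) and 1 lower (FKBP5, in 22 of 25 settings). PDK4 was past 2-fold in 21 of 25 settings, and stood at 0.86 in thinned nuclei, 0.54 as a mean over nuclei and -0.27 with the level of the other barcodes subtracted. The heat-shock and immediate-early list summed to 1198 and 542 CPM, and to 1960 and 805 CPM in the other barcodes, with HSP90AA1 at a log2 ratio of -1.07. HSP90AA1 was past 2-fold in 17 of 25 settings, and stood at -0.94 with median-of-ratios scaling and -0.71 as a mean over nuclei, while subtracting the level of the other barcodes left 0 UMIs in both libraries. FOS had 9 UMIs in 6 WT and 1 UMI in 1 PIGinH11 nucleus. HSP70.2 had 10 PIGinH11 UMIs, all in 1 nucleus, against 13 in 7 WT nuclei.

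Mitochondrial genes summed to 1871 CPM in WT and 260 CPM in PIGinH11 macrophage nuclei, and ribosomal protein genes to 6602 and 2373 CPM. In the other barcodes these sums were 1339 and 488 CPM, and 6293 and 3366 CPM. WT nuclei with 2 or 3 rule UMIs carried much of the WT mitochondrial sum. The WT nuclei with 4 or more held 60599 of the 66800 UMIs, but 12 of 35 for COX1, 18 of 28 for COX3 and 7 of 23 for ATP6. Of the 35 COX1 UMIs, 18 lay in 1 nucleus. Among nuclei with 4 or more rule UMIs the log2 ratios were -3.32 for COX1, -2.67 for COX3 and -1.85 for ATP6. Lists of Fc receptors and oxidative burst, interferon response and cell cycle had 0 genes with 30 UMIs. They summed to 913 and 859 CPM, 464 and 520 CPM, and 44.9 and 90.4 CPM, the last from 3 and 8 UMIs. GP91-PHOX, the catalytic subunit of the phagocyte oxidase, was not counted in the list of Fc receptors and oxidative burst. It had 24 UMIs in 13 nuclei of each library.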
